A study of Homo sapiens with 79 samples.

Results

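The mRNAs described here encode the shared catalytic and scaffold subunits of the NuRD, CoREST and SIN3 corepressor complexes. They were chosen by gene symbol, as 10 of the 48453 genes in the deposited gene table (HDAC1, HDAC2, KDM1A, RCOR1, MTA1, MTA2, MBD3, GATAD2A, GATAD2B and SIN3A), together with their 108 isoforms of the 185661 in the isoform table. The rule uses gene symbols, not measured values. The RNA came from K562, an established human line of chronic myeloid leukaemia with erythroid features, grown without treatment, crosslinked with formaldehyde and sheared. In formaldehyde RNA immunoprecipitation (fRIP), an antibody to 1 protein pulls down the RNA crosslinked near it, and that RNA is sequenced. Input is RNA from the same kind of lysate without the pull-down.

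The study targeted 24 proteins or protein forms, among them HDAC1, LSD1 and the NuRD remodeller CHD4. It holds 79 libraries. Of these 70 are fRIP libraries, with 3 per target except 2 for EZH2 and for STAG2, and 9 are inputs, prepared as 3 sets of 3. The comparisons of 13 targets were made by the depositors against input set 1 (HDAC1, LSD1 and CHD4 among them), those of 5 against set 2 (CHD1, NUP98, PCAF, RBBP5, WDR5) and those of 6 against set 3 (CBP, CHD7, EZH2, HUR, PABP, PHF8). An antibody was the only thing that separated one fRIP group from another in the labels, and no group had a genetic change. Estimated depth was 11.1 to 14.3 M fragments in HDAC1 fRIP, 18.5 to 20.2 M in LSD1 fRIP, 12.1 to 31.3 M in input and 1.98 to 2.35 M in ADAR fRIP, the shallowest. In input, the erythroid and K562 markers HBG1, HBG2, HBE1, GATA1, TAL1 and TFRC were at 32.6 FPKM or more in every library, while the T and B cell markers CD3E and MS4A1 stayed at or under 0.469 FPKM.

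Histone deacetylases remove acetyl groups from histone tails, which is associated with repressed chromatin. HDAC1 and HDAC2 are close relatives that serve as the catalytic pair of all 3 complexes. In CoREST they work beside LSD1, the histone H3 lysine 4 demethylase encoded by KDM1A, on the scaffold RCOR1. NuRD joins the deacetylases, through MTA1 or MTA2, to the methyl-CpG-binding-domain protein MBD3, the linkers GATAD2A and GATAD2B, and the remodeller CHD4. SIN3A is the scaffold of the SIN3 complex. In fRIP the question is asked of the mRNAs of these subunits: whether they were more or less abundant in RNA pulled down with each protein than in input.

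Levels are given as FPKM, fragment counts scaled to the length of the transcript and the size of the library. A log2 fold change is the difference of mean log2(FPKM + 1) between fRIP and input libraries, fitted with limma over all 25442 genes that reached 1 FPKM in at least 2 libraries, and followed by its standard error (SE) and a Benjamini-Hochberg adjusted p. All 10 mRNAs passed this filter. A difference is said to have been called where the adjusted p was under 0.05 and the change was beyond 2-fold. The value against all 9 inputs comes first and the value against the 3 inputs of the own set second. In bulk RNA, fewer cells with an mRNA and less of it per cell cannot be told apart, and as FPKM is a share of its library, neither can more of an mRNA and less of all the others.

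Of the 240 pairs of mRNA and fRIP, 16 were called higher than input and 5 lower. These are 6.67% and 2.08% of the pairs, where 6.9% and 5.52% of all gene and fRIP pairs were called higher and lower. With the own input set, 16 and 4 pairs were called, of which 15 and 3 were also called with all 9 inputs (background 6.24% and 5.61%). When each library was instead centred on its own median, 23 were called higher and 13 lower (7.04% and 6.58% of all pairs), and 14 of the 21 calls held. The 22 pairs called only on centring included 6 higher in PCAF fRIP (11.8% of all genes), 6 lower in ADAR fRIP (35.2%) and 4 lower in HNRNPU fRIP (13.7%). By adjusted p alone, 126 of 240 pairs differed from input, 79 higher and 47 lower (19.0% and 16.0% of all pairs), and 97 with the own set (14.9% higher and 13.2% lower among all pairs). Calls fell in 10 of the 24 fRIPs, HDAC1 and LSD1 fRIP not among them, and every one of the 10 mRNAs was called at least once.

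**Figure D1:**
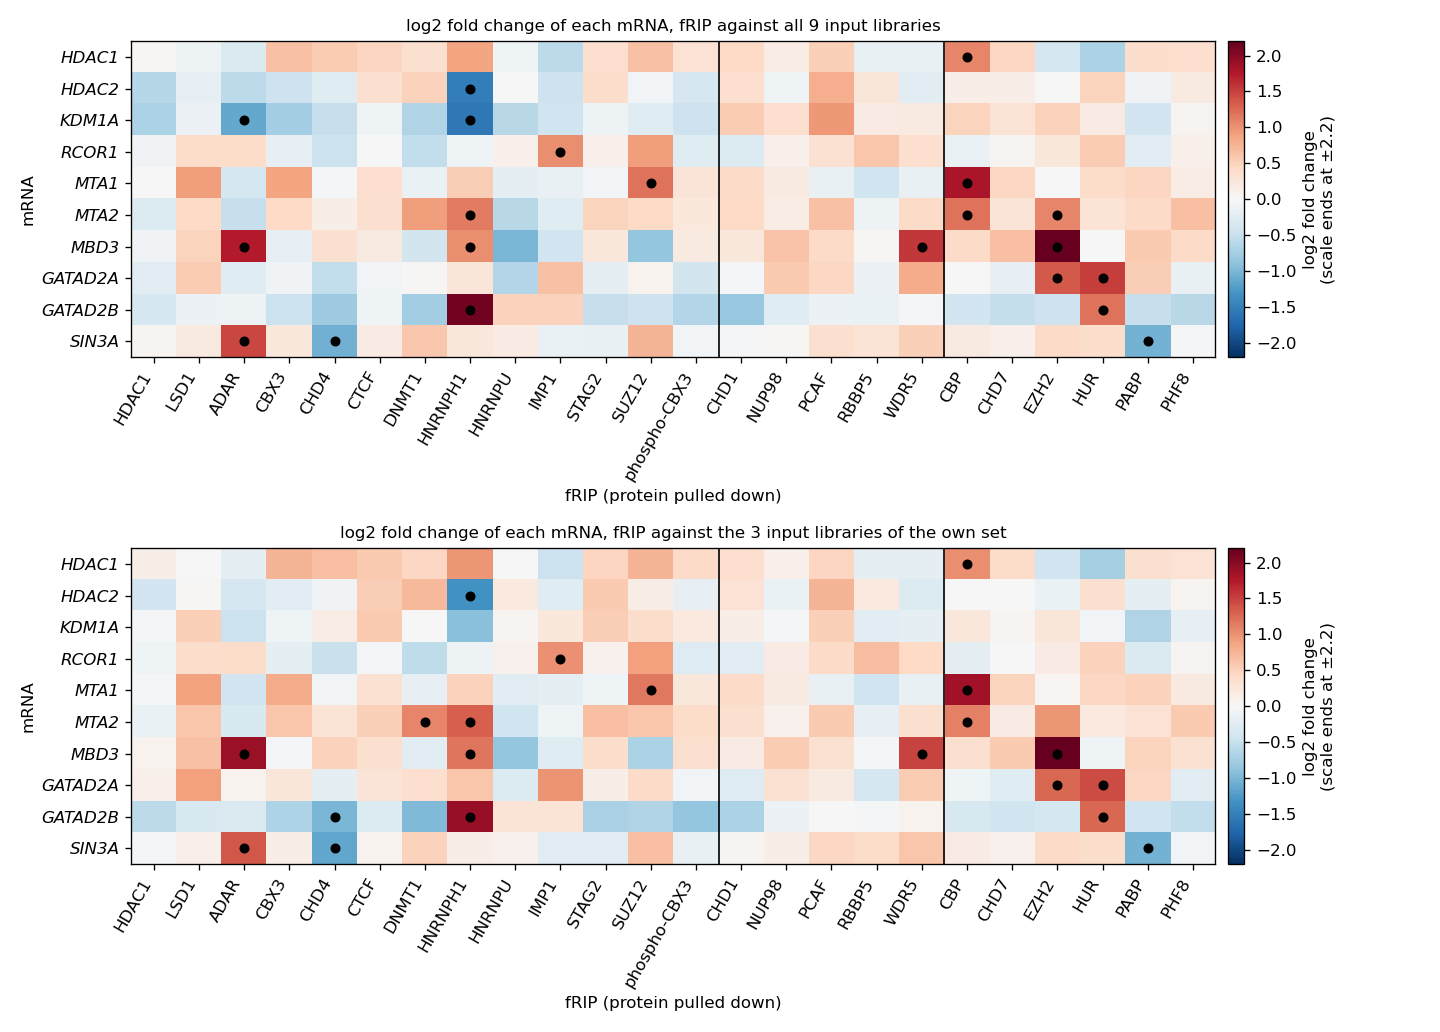
Log2 fold change of each mRNA (rows) in each fRIP (columns), against all 9 inputs (top) and against the 3 inputs of the own set (bottom). Black dots mark called pairs, and vertical lines separate the fRIPs of input sets 1, 2 and 3; the MBD3 and EZH2 pair, at 3.14 and 3.06, lies beyond the end of the colour scale, and the HDAC1 and LSD1 columns hold no dot.

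Stretches from the transcripts are shown first for the fRIPs of HNRNPH1, a splicing regulator known to bind runs of G, and HUR, a stabilising protein known to bind U-rich 3′ UTRs, since HNRNPH1 fRIP held 5 of the 21 calls, the most of any fRIP, and HUR fRIP the calls of both GATAD2 mRNAs. They were picked with the values known. Each is the 30-base stretch with the most bases in runs of the motif (GGGG or TTTTT, searched on the sense strand only, in the most expressed coding transcript among those matched to the reference), 5′ to 3′ as DNA in GRCh37, with the runs in capitals. Of 15204 transcripts, 88.45% held GGGG and 71.97% held TTTTT at least once, so a match by itself sets no transcript apart. These were the most expressed matched transcript of each gene, coding or not, with a mean of at least 1 FPKM in input. They are therefore not a like set for the coding transcripts shown. The G runs are shown for 3 mRNAs called higher in HNRNPH1 fRIP and 2 called lower:
MTA2, 3′ UTR: cctccctttgtgaaaGGGGatGGGGaGGGG
MBD3, 5′ UTR: gagcGGGGGctggcgagcgcGGGGaGGGGG
GATAD2B, 3′ UTR: gaaaggatagattGGGGttGGGGGGtGGGG
HDAC2, 5′ UTR: ccgcggttcctgcgggcgggaatcaGGGGG
KDM1A, coding exon: cagccgaggtcgggccGGGGGcggtGGGGG
The T runs are shown for both mRNAs called higher in HUR fRIP and for HDAC1, which was lower there:
GATAD2A, 3′ UTR: tctataagttgaaagaTTTTTTTTTTTTTT
GATAD2B, 3′ UTR: taattttgccTTTTTTTTTTTTTTTTTTTT
HDAC1, 3′ UTR: tttccTTTTTgagatactattttcaTTTTT

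These stretches lie in exon 18 of 18 of MTA2 (chr11:62361002-62361031, minus strand), exon 1 of 7 of MBD3 (chr19:1592813-1592842, minus), exon 11 of 11 of GATAD2B (chr1:153777545-153777574 for G and chr1:153781276-153781305 for T, minus), exon 1 of 14 of HDAC2 (chr6:114291810-114291839, minus), exon 1 of 19 of KDM1A (chr1:23346229-23346258, plus), exon 12 of 12 of GATAD2A (chr19:19616767-19616796, plus) and exon 14 of 14 of HDAC1 (chr1:32799162-32799191, plus). A single factor's site cannot be read from such a match, and binding was not measured at this resolution.

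HDAC1 fRIP came first among the comparisons, as HDAC1 and HDAC2 proteins are subunits of all 3 complexes. None of the 10 mRNAs was called higher (background 8.42%) or lower (5.35%) against all 9 inputs, nor against input set 1 (5.08% and 3.33%). By limma's unadjusted p under 0.05, 4 of the 10 differed, all lower, where 46.6% of all genes differed, and 2 with the own set (35.3%). By adjusted p alone 3 were lower (HDAC2, KDM1A and GATAD2B; background 15.8%) and 0 higher (24.6%), and with the own set 2 were lower (10.8%) and 0 higher (15.6%). Centring turned the split of all calls in HDAC1 fRIP from 2141 higher and 1362 lower to 1070 and 2533, and in LSD1 fRIP from 207 and 1695 to 1211 and 614, so the direction of a small difference depends on the scale used. The median log2 fold change of the 10 was -0.15 where the median of all genes was 0.08, and -0.04 against 0.01 with the own set.

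HDAC1 mRNA (chr1:32757684-32799236, plus strand, GRCh37) was at 106, 112 and 131 FPKM in HDAC1 fRIP. In the 9 inputs it lay between 101 and 126 FPKM with a median of 116 FPKM. The groups overlapped, and the log2 fold change was 0.04 ± 0.10 (adjusted p = 0.829), or 0.14 ± 0.12 (0.482) with the own set. Its sign was not stable: without HDAC1 replicate 3 it was -0.05, and with median-centred libraries it was -0.25.

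HDAC2 mRNA (chr6:114254192-114332472, minus strand) was at 53.4, 59.2 and 62.0 FPKM in HDAC1 fRIP and at 73.1 to 105 FPKM in input (median 88.7). All 3 fRIP libraries lay below all 9 inputs. The log2 fold change was -0.62 ± 0.14 (adjusted p = 0.000125), or -0.43 ± 0.16 (0.0425) with the own set, and the exact two-sided permutation test of 3 against 9 libraries gave 0.00455, the smallest p it can give.

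KDM1A mRNA (chr1:23345936-23410182, plus strand) was at 5.02, 5.24 and 6.16 FPKM in HDAC1 fRIP and at 5.34 to 13.4 FPKM in input. Its log2 fold change of -0.70 ± 0.18 (adjusted p = 0.000803) against all 9 inputs became -0.04 ± 0.16 (0.903) against input set 1, whose 3 libraries were at 5.34, 5.53 and 6.09 FPKM. Its level split by set in the study as a whole: sets 2 and 3 were at 13.0 ± 0.57 and 11.4 ± 0.77 FPKM (SD, n = 3), set 1 at 5.65 ± 0.39. The 13 fRIPs compared with set 1 had means of 2.55 to 8.90 FPKM, those of set 2 10.9 to 19.3 FPKM and those of set 3 6.83 to 14.4 FPKM.

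**Figure D2:**
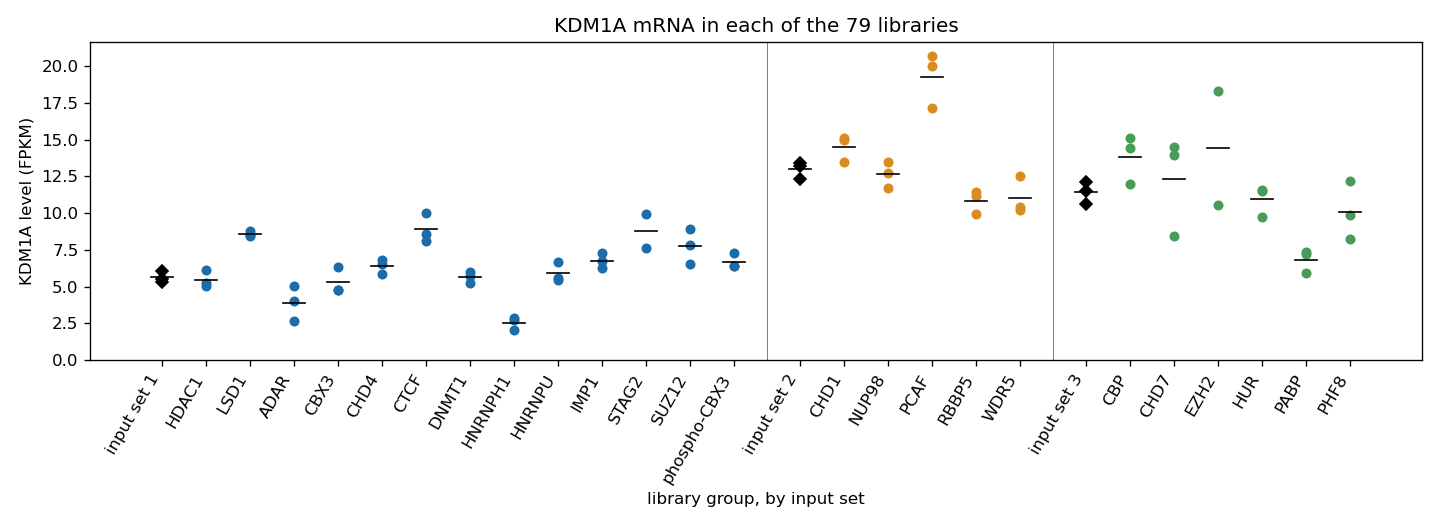
KDM1A level in FPKM in each of the 79 libraries, by group and input set, with inputs as black diamonds, fRIP libraries as coloured points and each group's mean as a bar. The 3 inputs of set 1 lie at 5.34 to 6.09 FPKM and those of sets 2 and 3 at 10.6 FPKM or more, and PCAF fRIP holds the highest mean, 19.3 FPKM.

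GATAD2B mRNA (chr1:153761506-153895836, minus strand) was at 6.69, 7.03 and 7.40 FPKM in HDAC1 fRIP, below the input range of 8.13 to 11.9 FPKM. It was lower by a log2 fold change of -0.37 ± 0.10 (adjusted p = 0.00127), and by -0.57 ± 0.11 (3.47e-05) with the own set. The other subunit mRNAs overlapped input in HDAC1 fRIP. RCOR1, MTA1, MBD3, GATAD2A and SIN3A lay between -0.23 and 0.07 on the log2 scale, and MTA2 at -0.31 ± 0.15 (adjusted p = 0.0894; 0.00946 when libraries were centred on their medians, at -0.59).

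In LSD1 fRIP again none of the 10 was called higher (background 0.814%) or lower (6.66%), with 1.14% and 10.6% for the own set. At an unadjusted p under 0.05, 5 of the 10 differed with all 9 inputs (37.8% of all genes) and 6 with the own set (39.2%). By adjusted p alone 5 were higher (background 9.08%) and 0 lower (20.1%), and with the own set 5 higher (8.66%) and 1 lower (21.7%). The median of the 10 was 0.31 beside -0.13 for all genes, and 0.46 beside -0.18 with the own set.

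MTA1 (chr14:105886157-105937066, plus strand), a NuRD scaffold, had the highest of the 10 values against all 9 inputs, with GATAD2A at about the same value against the own set. Its mRNA was at 56.3, 62.8 and 63.0 FPKM in LSD1 fRIP, above the 9 inputs at 27.7 to 36.9 FPKM, a log2 fold change of 0.92 ± 0.14 (adjusted p = 9.39e-07), or 0.88 ± 0.18 (9.96e-05) with the own set. With median-centred libraries it was 1.33 and was called. Of its exonic bases 7.79% overlap TEX22 on the same strand and 11.2% a gene on the opposite strand, and the library kit does not mark strand, so some of its reads cannot be assigned with certainty.

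GATAD2A (chr19:19496635-19619741, plus strand) was at 108, 82.7 and 147 FPKM in LSD1 fRIP and at 52.4 to 106 FPKM in input. It overlapped the 9 inputs but lay above all 3 of its own set. The log2 fold change was 0.56 ± 0.18 (adjusted p = 0.0144), or 0.90 ± 0.21 (0.000582) with the own set. Without LSD1 replicate 3 the first value was 0.35 (adjusted p = 0.243).

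MBD3 (chr19:1573595-1592864, minus strand) was at 82.3, 72.4 and 82.2 FPKM in LSD1 fRIP. Input ranged from 49.2 to 60.3 FPKM in 8 libraries with the ninth at 79.4, so the groups overlapped. It was higher by 0.50 ± 0.16 (adjusted p = 0.0137), or 0.65 ± 0.20 (0.00804) with the own set. Leaving out LSD1 replicate 1 gave 0.47 (adjusted p = 0.0684) and leaving out replicate 3 gave 0.47 (0.0652). MTA2 (chr11:62360686-62369337, minus strand) was at 131, 104 and 155 FPKM against 79.8 to 112 in input, a log2 fold change of 0.44 ± 0.15 (adjusted p = 0.0173), or 0.61 ± 0.18 (0.00625). It too lost its place under the threshold without LSD1 replicate 1 (0.42, adjusted p = 0.0713) or replicate 3 (0.30, 0.204).

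LSD1's own mRNA, KDM1A, was at 8.45, 8.54 and 8.79 FPKM in LSD1 fRIP. These lay above the 3 inputs of set 1, by 0.53 ± 0.16 (adjusted p = 0.00645), and inside the range of all 9 inputs, where the difference was -0.13 ± 0.18 (0.644). RCOR1 (chr14:103058986-103196898, plus strand), whose protein holds LSD1 in CoREST, was at 46.6, 35.9 and 54.8 FPKM, overlapping input at 24.8 to 38.2 FPKM. Its difference of 0.41 ± 0.16 was just inside the threshold (adjusted p = 0.0466) and outside it with the own set (0.39 ± 0.20, 0.134). It also missed the threshold without LSD1 replicate 1 (adjusted p = 0.149) or 3 (0.322), and without replicate 1 of input set 1 (0.0710), replicate 1 or 3 of set 2 (0.0507 and 0.0866) or replicate 3 of set 3 (0.0609). GATAD2B was lower than its own set (-0.33 ± 0.11, adjusted p = 0.0155), and at -0.13 (0.347) against all 9 inputs. HDAC1, HDAC2 and SIN3A (chr15:75661720-75748183, minus strand) were at -0.11, -0.18 and 0.20 against all 9 inputs and overlapped them. The centring on medians added 0.41 to every value in LSD1 fRIP, which turned HDAC1, HDAC2, KDM1A and GATAD2B from below to above input.

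**Figure D3:**
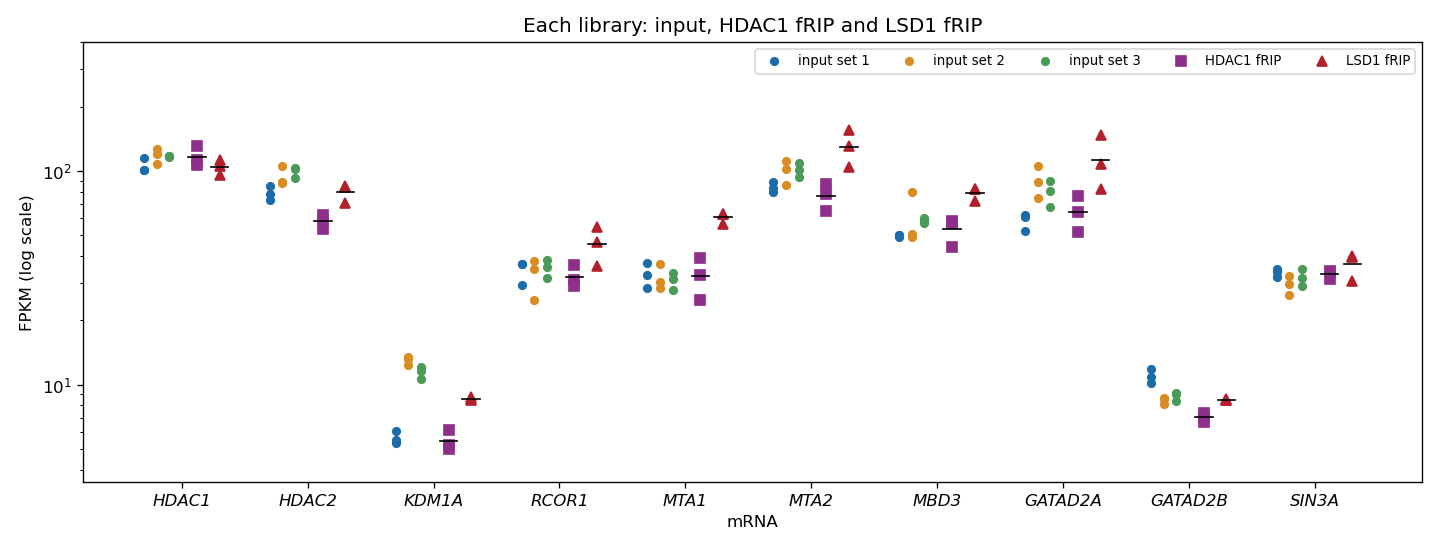
FPKM of each mRNA in each library (log scale): the 3 input sets as circles, HDAC1 fRIP as squares, LSD1 fRIP as triangles, with a bar at each fRIP mean. HDAC2 and GATAD2B lie below all 9 inputs in HDAC1 fRIP, and MTA1 lies above all 9 in LSD1 fRIP.

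The direct comparison of HDAC1 with LSD1 fRIP needs no input, and both belong to the same input set. Of the 10 mRNAs, 7 were lower in HDAC1 than in LSD1 fRIP by adjusted p alone (background 13.5%) and 0 higher (30.2%); none was beyond 2-fold in either direction (4.33% lower and 16.0% higher for all genes). At an unadjusted p under 0.05, 8 differed (49.5% of all genes). The median of the 10 was -0.53 while that of all genes was 0.21. MTA1 differed most, at -0.91 ± 0.18 (adjusted p = 1.95e-05), with its 3 HDAC1 libraries at 24.9, 32.5 and 39.3 FPKM, all below the 3 LSD1 libraries given above. HDAC2, KDM1A, MTA2, MBD3, GATAD2A and GATAD2B did not overlap between the groups either, while RCOR1, HDAC1 and SIN3A did. The smallest exact permutation p of 3 against 3 libraries is 0.1, and the share of all genes without overlap was not counted. GATAD2A was at -0.78 ± 0.22 (0.00281), MTA2 at -0.74 ± 0.18 (0.000473) and MBD3 at -0.57 ± 0.20 (0.0151). KDM1A was at -0.57 ± 0.21 (0.0261), RCOR1 at -0.49 ± 0.20 (0.0395) and HDAC2 at -0.45 ± 0.17 (0.0246).

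Several of these rested on single libraries. KDM1A kept its place under the threshold when HDAC1 replicate 3 was left out and lost it with any of the other 5: without HDAC1 replicate 1 or 2 the adjusted p was 0.0845 or 0.0663, and without LSD1 replicate 1, 2 or 3 it was 0.0509, 0.0523 or 0.0632. RCOR1 missed it without HDAC1 replicate 1 (0.135) or 2 (0.0941) or LSD1 replicate 1 (0.0946) or 3 (0.216), and HDAC2 without HDAC1 replicate 1 (0.0984) or LSD1 replicate 1 (0.0844) or 3 (0.0783). MBD3 missed it without HDAC1 replicate 1 (0.109), and GATAD2A without LSD1 replicate 3 (0.0541). MTA1 and MTA2 passed it whichever library was left out. HDAC1 mRNA was at 0.15 ± 0.12 (adjusted p = 0.363), GATAD2B at -0.24 ± 0.12 (0.0944) and SIN3A at -0.13 ± 0.15 (0.526). Centring each library on its median moved all 10 by -0.70 and the split of all calls from 4072 higher and 1102 lower to 1314 and 5131. The 7 mRNAs that were lower were then all called lower (20.2% of all genes), and HDAC1 mRNA turned to -0.55.

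**Figure D4:**
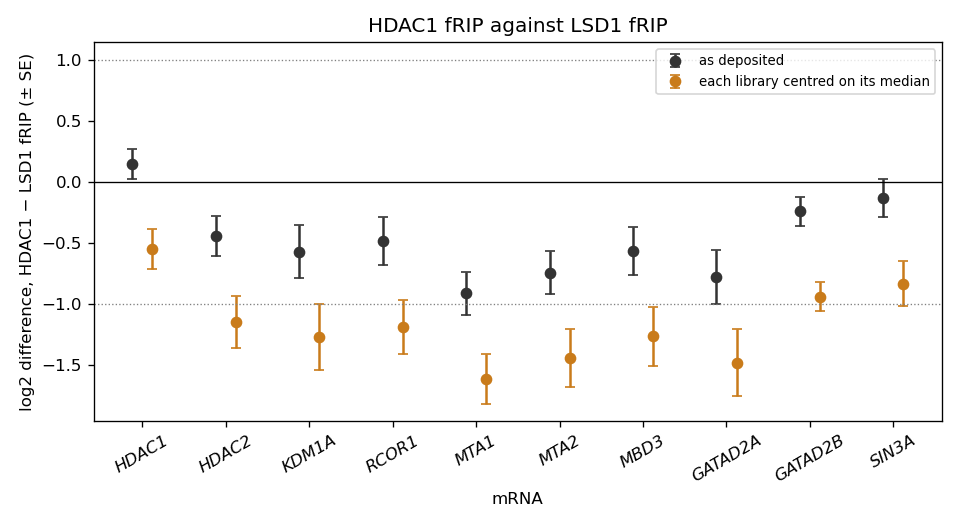
Log2 difference of each mRNA between HDAC1 and LSD1 fRIP, with its standard error, as deposited (dark) and with each library centred on its median (orange). Zero is the solid line and 2-fold the dotted lines; as deposited every value lies between -0.91 and 0.15, and centring lowers each by 0.70.

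Against the mean of the other 23 fRIPs, HDAC1 fRIP had 6 of the 10 lower by adjusted p alone (background 18.3%), 0 higher (23.2%) and none beyond 2-fold (7.66% higher and 2.52% lower). MTA2 was the farthest, at -0.68 ± 0.13. Against the 12 other fRIPs of its input set, a comparison added after the data were seen, 4 were lower (17.4%) and 0 higher (19.1%), with MTA2 at -0.57 ± 0.13 and HDAC2 at -0.40 ± 0.12 and none beyond 2-fold (1.34% and 5.72%). LSD1 fRIP had 2 higher (7.48%) and 1 lower (26.5%), none beyond 2-fold (0.79% and 3.51%). MTA1 was at 0.68 ± 0.13 and HDAC1 mRNA, the lower one, at -0.34 ± 0.09. Within the set 4 were higher (9.3%) and 1 lower (35.3%), again none beyond 2-fold (1.1% and 8.14%). On centring 3 of them were called higher within the set (7.28% of all genes), KDM1A at 1.02, MTA1 at 1.28 and GATAD2A at 1.22, and 0 lower (0.861%). KDM1A was at 0.04 ± 0.16 against all 23 and at 0.48 ± 0.16 (adjusted p = 0.0116) within the set.

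Larger differences lay in other fRIPs. MBD3 mRNA was highest in EZH2 fRIP (EZH2 is the methyltransferase of Polycomb repressive complex 2), at 427 and 579 FPKM in the 2 libraries against 49.2 to 79.4 in input, the largest difference among the 240. The fold was 8.81 (log2 3.14 ± 0.19, adjusted p = 1.09e-21), or 8.32 with the own set, and 10.5% of all genes were called higher there. The exact permutation p of 2 against 9 libraries was 0.0182, the smallest possible. MBD3 was also called higher in ADAR fRIP, at 170, 164 and 239 FPKM (1.74 ± 0.16), in WDR5 fRIP, at 143, 148 and 211 FPKM (1.55 ± 0.16), and in HNRNPH1 fRIP, at 118, 91.7 and 136 FPKM (1.02 ± 0.16). Every one of these libraries lay above all 9 inputs. The share of all genes called higher was 26.6% in ADAR, 3.9% in WDR5 and 24.5% in HNRNPH1 fRIP.

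The ADAR and HNRNPH1 values of MBD3 were 1.90 and 1.17 with the own set and dropped to 0.76 and 0.29 on centring, neither called. The HNRNPH1 call rested on a margin: it lay at 1.00 or below without HNRNPH1 replicate 1 (0.99) or 3 (0.90), or without input set 1 replicate 2 or input set 2 replicate 1 (1.00 each). MBD3 was lowest in HNRNPU fRIP, at 28.2, 23.001 and 31.3 FPKM (log2 fold change -0.998, just short of 2-fold), and on centring it was called lower there (-1.59). Of its exonic bases 13.5% are shared with a gene on the same strand and 2.61% with one on the other.

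The other NuRD mRNAs had their own maxima. MTA1 was highest in CBP fRIP, at 113, 109 and 116 FPKM (1.80 ± 0.14, adjusted p = 2.21e-16; background 9.08%), with SUZ12 fRIP next, at 86.1, 50.7 and 92.4 FPKM (1.202 ± 0.144; 15.3%). The CBP libraries lay above the SUZ12 libraries, and all 6 above the inputs. CBP is a histone acetyltransferase and SUZ12 a core subunit of Polycomb repressive complex 2. MTA2 was at 229, 216 and 212 FPKM in CBP fRIP (1.201 ± 0.146) and at 210, 184 and 240 FPKM in HNRNPH1 fRIP (1.14 ± 0.15), 2 groups that overlapped. Centring left MTA2 in HNRNPH1 fRIP at 0.41 (adjusted p = 0.0544). In EZH2 fRIP MTA2 was at 246 and 162 FPKM (1.07 ± 0.17), called with all 9 inputs, not with its own set (0.98), and not without EZH2 replicate 1 (0.77). In DNMT1 fRIP it was at 174, 153 and 215 FPKM, called with the own set alone (0.91 and 1.08; background 9.56% and 10.5%).

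The linkers GATAD2A and GATAD2B shared the HUR fRIP. GATAD2A was at 220, 241 and 185 FPKM there (1.51 ± 0.18, adjusted p = 2.99e-10) and GATAD2B at 26.8, 23.3 and 18.9 FPKM (1.196 ± 0.096, 5.25e-16), all 6 values above the inputs of their gene, where 6.42% of all genes were called higher. On centring GATAD2B was at 0.95, short of 2-fold. GATAD2A was also called in EZH2 fRIP, at 207 and 178 FPKM (1.36 ± 0.21). GATAD2B was highest in HNRNPH1 fRIP, at 47.1, 43.0 and 42.8 FPKM against 8.13 to 11.9 in input (fold 4.36, log2 2.12 ± 0.10, adjusted p = 3.55e-27), and that group lay above all others. On centring this value was 1.39, still called. In most other fRIPs it was lower than input: 14 of 24 by adjusted p, with 4 higher, and 15 and 4 with the own set. It was lowest in CHD1 fRIP (4.80, 5.00 and 4.73 FPKM) and CHD4 fRIP (5.26, 4.89 and 4.72 FPKM), which overlapped, and called in CHD4 fRIP with the own set alone (-0.80 and -1.01; background 9.79% and 14.5%).

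The deacetylase mRNAs differed from each other. Against all 9 inputs as deposited, HDAC1 was called only in CBP fRIP, at 223, 235 and 258 FPKM (1.07 ± 0.10, adjusted p = 1.64e-13, called with the own set and on centring). On centring it was also called in PCAF (1.14) and ADAR fRIP (-1.30). It was lowest in HUR fRIP, at 61.7, 68.3 and 80.6 FPKM (-0.69 ± 0.10), below all inputs. HDAC2 was called, on the deposited scale, only in HNRNPH1 fRIP, lower, at 28.9, 28.5 and 34.6 FPKM (-1.53 ± 0.14, 4.63e-15; background 7.9%). That group lay below every other fRIP group, the next being HDAC1 fRIP. HDAC2 was highest in PCAF fRIP, at 144, 169 and 159 FPKM (0.79 ± 0.14). Centring called it there (1.41) and in ADAR fRIP (-1.55).

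In the CoREST pair, KDM1A was called lower in HNRNPH1 fRIP, at 2.05, 2.71 and 2.89 FPKM (-1.57 ± 0.18, adjusted p = 1.32e-11), and in ADAR fRIP, at 5.03, 2.69 and 4.00 FPKM (-1.12 ± 0.18, 1.17e-07; background 4.31%). Both groups lay below all 9 inputs. Within the set these became -0.91 ± 0.16 (1.47e-06) and -0.47 ± 0.16 (0.0103), short of 2-fold, and without ADAR replicate 2 the pooled ADAR value was -0.93. On centring the pooled ADAR value was -2.10. In ADAR fRIP the KDM1A value rests on about 19 to 30 fragments a library. RCOR1 was called in IMP1 fRIP (IMP1 binds mRNAs in the cytoplasm), at 76.2, 51.4 and 86.0 FPKM (1.03 ± 0.16, 3.39e-07; background 4.23%). This lay just past 2-fold, and under it without IMP1 replicate 1 (0.96), IMP1 replicate 3 (0.88) or input set 2 replicate 3 (0.97).

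SIN3A mRNA was highest in ADAR fRIP, the fRIP of an RNA-editing deaminase, at 85.8, 85.2 and 94.9 FPKM against 26.2 to 34.9 in input (1.47 ± 0.13, adjusted p = 9.59e-16). Centring left 0.49. It was called lower in CHD4 fRIP, at 15.9, 13.4 and 14.7 FPKM (-1.05 ± 0.13, 5.12e-10), and in PABP fRIP (PABP binds poly(A) tails), at 16.5, 14.7 and 13.5 FPKM (-1.03 ± 0.13, 2.84e-10; background 14.7%). Both lay below all 9 inputs and held with the own set (-1.14 and -1.04). On centring they were -0.65 and -0.54, and they fell short of 2-fold without CHD4 replicate 2 (-0.99) and PABP replicate 3 (-0.97).

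For the pattern across all groups, the genes whose mean log2 level over the 24 fRIPs and input was most like that of HDAC1 were WDR46 (Pearson r = 0.915), HAUS7 (0.906) and CORO1B (0.904). For KDM1A they were NLN (0.824), SCO1 (0.817) and RP11-410D17.2 (0.776). These are descriptions over 25 groups that share input sets and depth. Ordered by mean level, few neighbours among the 24 fRIPs stood apart: of 23 neighbouring pairs, 0 did not overlap for HDAC1, RCOR1 and MTA2, 1 for HDAC2, KDM1A, MTA1 and GATAD2A, 2 for MBD3 and SIN3A, and 3 for GATAD2B.

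Gene totals joined isoforms that differed in direction. Of the 108 isoforms, 86 passed the filter, 39 of them annotated as coding, 25 as retaining an intron and 7 as targets of nonsense-mediated decay. In HDAC1 fRIP 1 isoform was called higher and 3 lower (background 6.41% and 3.77% of 104506 isoforms), and 0 and 0 with the own set (4.12% and 1.98%), where limma's unadjusted p was under 0.05 for 12 (20.4%). The largest of the 4 was MTA2-201, the longest MTA2 coding isoform, at 13.9, 18.3 and 12.5 FPKM against 16.9 to 81.3 in input. Its -1.52 became -0.27 within input set 1, at 16.9 to 18.7 FPKM.

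In LSD1 fRIP 8 isoforms were called higher (1.85%) and 7 lower (4.9%), and 6 and 9 with the own set (2.04% and 8.34%). Centring gave 11 higher and 1 lower (4.18% and 1.92%). Of the 7 lower, 5 were annotated as retaining an intron, among 25 such isoforms (8.83% of all 19390 intron-retaining isoforms were called lower there). The retained-intron isoform HDAC1-206 was at 4.21, 4.57 and 5.00 FPKM in LSD1 fRIP against 7.12 to 21.9 in input (-1.23 ± 0.21, -1.69 with the own set), while the main coding isoform HDAC1-201 was at 84.7, 83.5 and 88.5 FPKM against 64.7 to 96.7 (0.06 ± 0.13, adjusted p = 0.836). MTA2-204 (coding) was higher, at 36.8 FPKM against 13.2 in input (1.40, 1.36 with the own set). MTA1-202 (coding, 1.28 and 1.59) and MTA1-216 (retained intron, 2.30 and 1.91) were higher as well. Isoform FPKM values are estimates that divide shared reads among overlapping models, and a short isoform gains FPKM from few reads.

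The other 22 fRIPs were fitted for isoforms after the gene values had been seen. In HNRNPH1 fRIP 27 isoforms were called higher (20.8%) and 11 lower (11.0%). HDAC1 mRNA as a whole, at 0.87 there, held 2 opposite changes. HDAC1-201 was at 7.72, 11.5 and 15.3 FPKM, below the 9 inputs at 64.7 to 96.7 (-2.78 ± 0.13, -2.52 with the own set). HDAC1-206 was at 101, 73.5 and 83.1 FPKM, above inputs at 7.12 to 21.9 (2.72 ± 0.21, 2.26 with the own set). The coding isoform HDAC2-206 was lower too, at 12.3, 11.5 and 14.0 FPKM against 50.7 to 83.7 (-2.34 ± 0.14, -2.09 with the own set). The retained-intron isoform MTA2-203 was higher, at 33.7, 22.8 and 31.5 FPKM against 0.542 to 7.71 (2.87 ± 0.34, 2.05 with the own set). Its intron is intron 5 of 17 of MTA2-201 (185 bases, chr11:62365614-62365798).

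The share of a gene's summed isoform FPKM in intron-retaining isoforms rests on the same values. For HDAC1 it was 50.4%, 45.0% and 48.9% in HNRNPH1 fRIP and 7.76% to 22.03% in input. It was 11.8% to 13.5% in HDAC1 fRIP, inside the range of all inputs but below the own set, set 1, at 17.6% to 22.03%. In LSD1 fRIP it was 5.55%, 5.58% and 5.76%, below all inputs. In CHD4 fRIP it was 1.97% to 3.16%, and in PABP fRIP 0.403% to 0.711%. HDAC2, MTA2 and SIN3A had 48.6% to 54.2%, 39.1% to 43.4% and 57.1% to 62.7% in HNRNPH1 fRIP, and at most 2.66%, 5.99% and 6.43% in CHD4 fRIP and 1.69%, 0.218% and 2.31% in PABP fRIP. Inputs of set 1 were higher than set 3 for HDAC1 (17.6% to 22.03% and 7.76% to 11.5%), so the share too differs with the set. The order was not one of HDAC1 alone: HUR fRIP was at 36.2% for HDAC1 but 2.37% for MTA2, and SUZ12 fRIP at 54.6% for MTA2 but 18.1% for HDAC1. These shares were chosen for display with values known and carry no test.

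**Figure D5:**
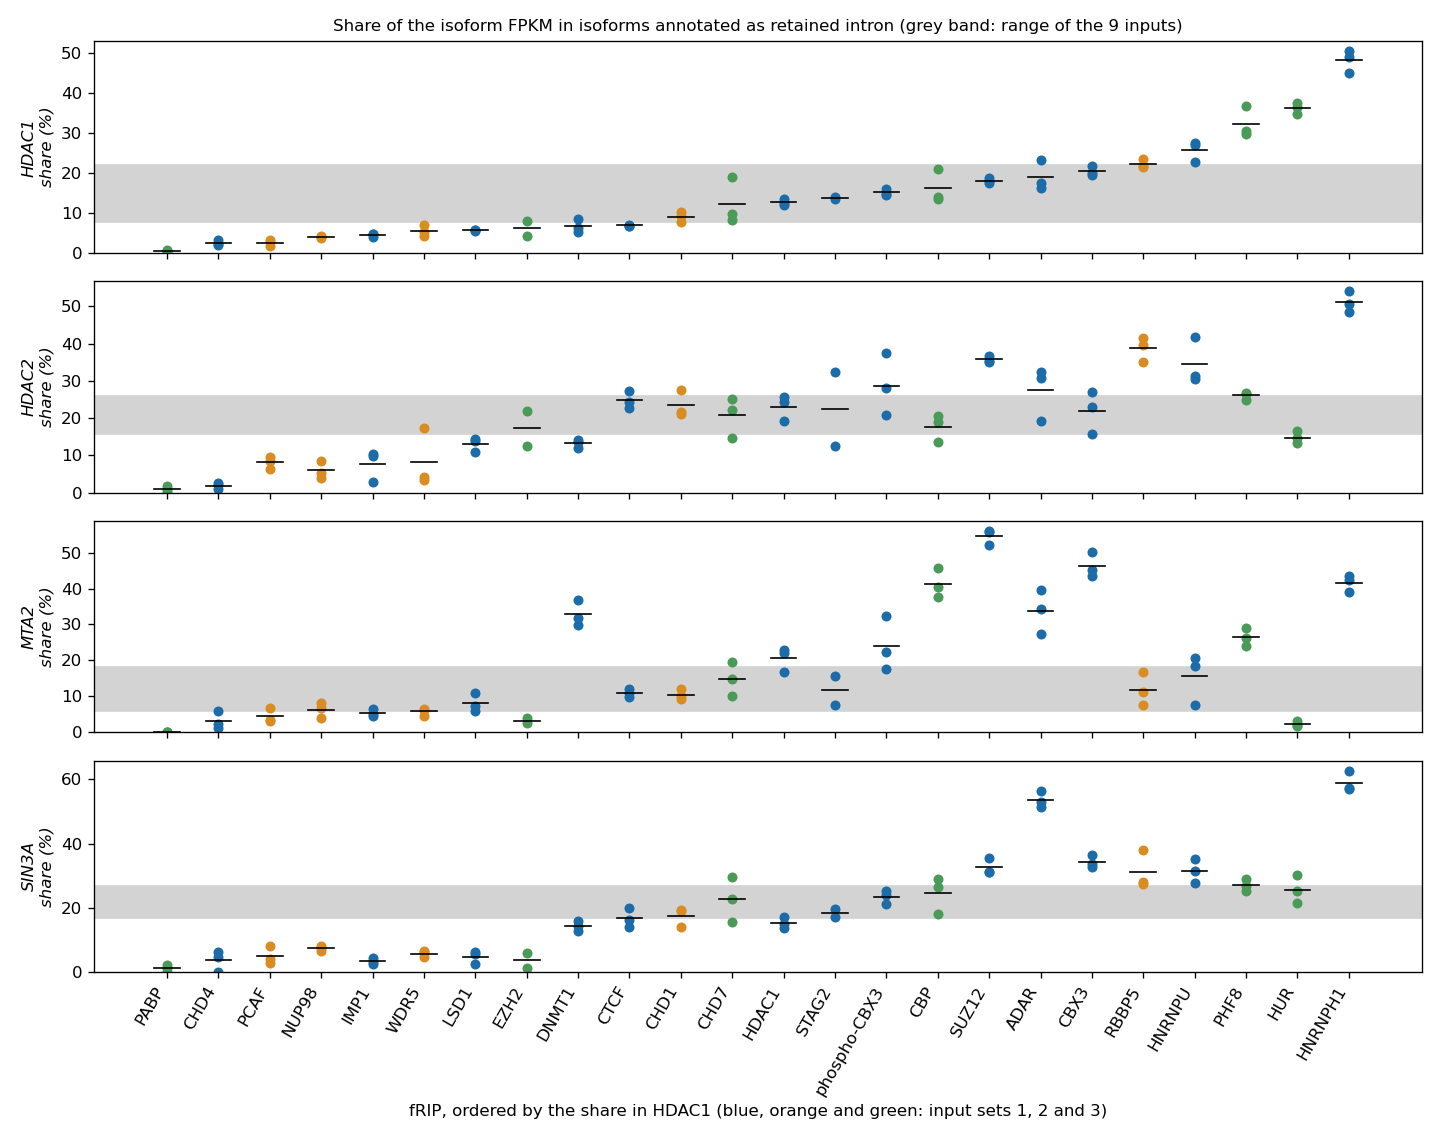
Share of summed isoform FPKM in isoforms annotated as retaining an intron, per library, for 4 mRNAs in the 24 fRIPs, with a bar at each mean and a grey band for the range of the 9 inputs. PABP fRIP lies below the band and HNRNPH1 fRIP above it for all 4, and LSD1 and CHD4 fRIP lie below it for HDAC1, HDAC2 and SIN3A.

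By count, 12 of the 25 intron-retaining isoforms were called higher in HNRNPH1 fRIP (39.9% of all such isoforms), 12 in SUZ12 fRIP (39.8%) and 12 in CBP fRIP (33.3%), and 15 were called lower in PABP fRIP (34.3%) and 11 in CHD4 fRIP (27.0%). These counts describe 10 genes, and isoforms of a gene share reads.

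In sequence the mRNAs differed in what the rule did not use. GGGG occurred 13.95 times per kb in MTA2, 8.81 in MBD3 and 8.16 in GATAD2B, the mRNAs called higher in HNRNPH1 fRIP, and 3.00 in HDAC2 and 4.62 in KDM1A, those called lower. The median of the 15204 transcripts, coding or not, was 3.38. GATAD2A at 7.08, MTA1 at 6.28 and HDAC1 at 5.67 lay between and were not called there. SIN3A at 3.17 lay between HDAC2 and KDM1A, the matched RCOR1 transcript was lowest at 1.56, and neither was called. TTTTT occurred 10.3 times per kb in GATAD2A and 8.70 in GATAD2B, both called higher in HUR fRIP, and 11.03 in MTA2, which was not called (median 1.98). For HDAC1, lower there, it was 2.83. Lengths ran from 2000 bases (HDAC2-206) to 7475 (GATAD2B-201), against a median of 1746 for the transcripts of any class. These counts describe the most expressed coding transcript of each gene among those matched to the reference, which carried 7.82% of the input FPKM of RCOR1, 9.18% of MTA1 and 12.95% of GATAD2A. The isoform that carried 82.25% of RCOR1 had no match in the reference models, so its class and sequence were not analysed here and the RCOR1 densities stand for a minor isoform. For GATAD2A the leading isoform, GATAD2A-205, carried 20.7% and is annotated as a target of nonsense-mediated decay, so a coding isoform of smaller share was used. No test was made.

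Of 50 further genes of these complexes and related deacetylases, 49 were tested. They comprise 8 NuRD, 9 CoREST, 16 SIN3, 6 NCoR-type, 3 MiDAC and 8 other deacetylase genes. In HDAC1 fRIP 7 were called higher (8.42% of all genes) and 2 lower (5.35%), 5 and 1 with the own set (5.08% and 3.33%), and 4 and 4 on centring (4.21% and 9.96%). The SIN3 subunit ARID4B was at 138 ± 4.4 FPKM (SD, n = 3) against 39.5 ± 5.8 in input (n = 9; 1.79 ± 0.13). ARID4A (1.37), PHF12 (1.21) and the demethylase KDM5A (1.28), which also belong to SIN3-type complexes, were higher, as were HDAC4 (1.52), the corepressor NCOR1 (1.29) and ZNF217 (1.04). CDK2AP1, a NuRD-associated protein, was at -1.46, and SAP18 at -1.06. ZNF217 was called in neither fRIP with the own set (0.90 and 0.99), nor PHF12 (0.95) or SAP18 (-0.59) in HDAC1 fRIP.

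LSD1 fRIP had 3 higher (0.814%) and 0 lower (6.66%), 1 and 1 with the own set (1.14% and 10.6%), and 8 and 0 on centring (4.76% and 2.41%). Among them were TBL1X (68.1 ± 8.3 FPKM against 24.9 ± 2.7; 1.42 ± 0.14), of the NCoR complex, and ZNF217 (1.13). CHD4 mRNA, which encodes the NuRD remodeller, was at 170 ± 82 FPKM in CHD4 fRIP (SD, n = 3), 413 ± 175 in HDAC1 fRIP and 224 ± 81 in LSD1 fRIP against 248 ± 58 in input (n = 9), with no adjusted p under 0.05. SUZ12 fRIP had the most of the 8 fRIPs examined for the list, 19 higher and 1 lower (15.3% and 8.6% of all genes), with the same counts with the own set (13.4% and 8.66%) and on centring (14.8% and 9.0%). RCOR3 was at 182 ± 7.4 FPKM there against 30.8 in input. The other fRIPs had 11 higher and 3 lower (HNRNPH1; 24.5% and 7.9% of all genes, with 5 and 8 on centring, 8.59% and 22.1%), 9 and 0 (EZH2; 10.5% and 9.13% of all genes), 8 and 1 (CBP; 9.08% and 3.78%), 3 and 4 (CHD4; 2.91% and 9.79%, with 10 and 0 on centring, 10.4% and 4.55%) and 3 and 3 (HUR; 6.42% and 6.93%). With the own set CHD4 fRIP had 6 higher and 6 lower, where 14.5% of all genes were called lower. On centring HUR fRIP had 1 higher and 4 lower, where 693 and 2707 of 25442 genes were called.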

How the data were processed

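The authors sequenced fRIP and input RNA from K562 cells with a kit that does not mark strand, after ribosomal RNA depletion, on a HiSeq 2500. Per the study's methods and the submitters' processing notes, reads were aligned with TopHat to hg19 (GENCODE 18) and abundances were made with Cuffdiff 2 and Cuffnorm. The deposited values are FPKM per gene and per isoform in each library, normalised by the authors across libraries; no counts were used here. Depth was estimated from the FPKM step of 1 fragment; with a tolerance of 0.15, 85.48% to 90.46% of the low values were whole multiples of it. The authors' own fold changes and p-values, per gene and isoform, were not used. From that gene table only the mean value of input was read, to find which input set served each comparison.

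Values were tested as log2(FPKM + 1) with limma 3.58.1 (R 4.3.3; one fit over all 79 libraries, trended prior), with genes and isoforms that reached 1 FPKM in at least 2 libraries, and Benjamini-Hochberg adjustment over all of them. A pseudocount understates changes of low genes. Exact two-sided permutation tests were run on single values. The fit was tested on simulated data. With 200 of 25442 genes changed by 1.5 on the log2 scale in HDAC1 fRIP, 96.5% were called, with 2 others; over isoforms 80% were called.

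The study describes replicates as made from different lysates on different days, and p-values measure the spread between these libraries. Replicate numbers were taken to pair fRIP with input only for CHD1, NUP98, PCAF and WDR5, from the data alone, as every same-numbered pair of deviations there correlated at over 0.1 (0.129 to 0.599). For the others at least 1 pair did not. Locations and sequences come from GRCh37 with GENCODE 44 models. Named values are each mRNA in HDAC1 and LSD1 fRIP, between them, and in its highest and lowest fRIP. Every called pair is given as well. Members, lists and tests were chosen with earlier results of these data known. The isoform fit of the other 22 fRIPs and the comparison within the input set were added after the values were seen. Alternatives were other pseudocounts, filters, centring, input sets, a replicate block, the compared libraries alone and leaving out each library. Some marker and list genes are not reported here by name.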

Additional observations from a re-analysis of the deposited data

Results flagged for a closer look

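Among the 9 inputs, MBD3 mRNA was at 79.4 FPKM in 1 library of set 2, and its gap to the next library was 0.632 of the whole range, above Dixon's limit of 0.493 for 9 values. Chance gives about 1 such group in 20.

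The responses of HDAC1 and LSD1 fRIP differed for 7 mRNAs by the direct test of HDAC1 against LSD1 fRIP (limma). HDAC1 minus LSD1 was -0.45 for HDAC2, -0.57 for KDM1A, -0.49 for RCOR1, -0.91 for MTA1, -0.74 for MTA2, -0.57 for MBD3 and -0.78 for GATAD2A on the log2 scale. The libraries of the groups overlapped for RCOR1 and not for the others named here, but the share of all genes without overlap was not counted. On centring each value was lower by a further 0.70, which is a shift of the scale common to all genes.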

How the results depend on the processing

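Among 50 named values, 504 of 539 leave-out values and 501 of 570 values under other alternatives kept their direction and side of the threshold. The rest comprised 27 and 32 that were no longer past it, 8 that newly passed it, and 8 and 29 that changed sign, 32 of them with neither value past the threshold. The causes were not tested. The threshold here was an adjusted p under 0.05 without the 2-fold limit. The 50 values were each mRNA in HDAC1 and LSD1 fRIP, between them, and in its highest and lowest fRIP. Other called pairs were not among them. Of all 21 called pairs, 15 kept their call whichever of their libraries or inputs was left out.

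Calling by adjusted p alone gave 79 pairs higher and 47 lower over all fRIPs, 3 lower in HDAC1 fRIP, 5 higher in LSD1 fRIP, 7 lower in HDAC1 against LSD1 fRIP, 6 lower in HDAC1 fRIP and 2 higher and 1 lower in LSD1 fRIP against the other 23. Centring gave 13 pairs lower over all fRIPs (6.58% of all pairs), 1 higher in LSD1 fRIP (MTA1; 4.76% of all genes) and 7 lower in HDAC1 against LSD1 fRIP (20.2%). Against the other 23 it gave 1 lower in HDAC1 fRIP, where 2260 of 25442 genes were called lower. In LSD1 fRIP it gave 1 higher, where 866 genes were called higher. With input set 2 alone 8 pairs were lower (5.36% of all pairs), 1 of them in HDAC1 fRIP (6.73% of all genes). Among isoforms, HDAC1 fRIP had 0 higher and 0 lower with the own set, and 0 higher with a pseudocount of 0.1 (6.51% of all isoforms). LSD1 fRIP had 4 higher and 11 lower with that pseudocount (1.62% and 11.9%), and 1 lower on centring.

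The values that changed sign were these. In HDAC1 fRIP, with the own set (set 1, with or without the replicate block in set 2), MTA1 was at -0.0335, MBD3 at 0.0843, GATAD2A at 0.12 and SIN3A at -0.0220. HDAC1 there was at -0.0202 with set 2 alone and -0.00891 with set 3 alone. In LSD1 fRIP the own set gave 0.0186 for HDAC2 and 0.53 for KDM1A (-0.13 with all 9 inputs), and set 2 alone 0.0030 for GATAD2B. Centring gave -0.25 for HDAC1, -0.28 for MTA1 and -0.22 for SIN3A in HDAC1 fRIP, 0.30 for HDAC1, 0.23 for HDAC2, 0.28 for KDM1A and 0.28 for GATAD2B in LSD1 fRIP, and -0.55 for HDAC1 between them.

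Leaving out 1 library at a time gave -0.0497 to 0.10 for HDAC1, -0.15 to 0.17 for MTA1 and -0.14 to 0.0580 for MBD3 in HDAC1 fRIP, 0 to 2 isoforms higher there, and 0 to 1 mRNAs lower in HDAC1 against LSD1 fRIP. The replicate block over all libraries left 16 pairs higher and 5 lower, and with the own set in set 2 it left 16 and 4. The block changed the call of 0 of 240 pairs in either fit. By adjusted p alone the block moved 8 pairs across the threshold with all 9 inputs (6 newly under it, 2 no longer) and 13 with the own set, all newly under it. Among named values these were MTA1 in RBBP5 fRIP (adjusted p 0.0847 to 0.0394) and MTA2 in HNRNPU fRIP (0.0632 to 0.0385), both with the own set. With the own set the block covered all libraries of set 2, RBBP5 among them. HNRNPU fRIP belongs to set 1 and had no block term. Both log2 fold changes stayed the same (-0.44 and -0.43). Depth limits KDM1A in ADAR fRIP, which rests on about 19 to 30 fragments a library.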
